A study of Mus musculus with 7 samples.

Results

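The baseline distribution of 5-hydroxymethylcytosine (5hmC) along the autosomes of the mouse hippocampus was described from the 3 wild-type libraries, out of 7 libraries in the series. They were chosen by their labels: genotype WT, strain C57BL/6, unstressed, hippocampus, replicates 1, 2 and 3. Earlier results of these data were known when they were chosen. The labels give no age or sex, and do not say whether a library holds DNA of 1 animal or of several. DNA fragments carrying 5hmC were captured from genomic DNA with an antibody, sequenced, and counted as reads in bins of 500 bp on the build mm9. Read counts of genomic DNA hold no expression of cell type markers, so the labelled tissue could not be checked that way.

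5hmC is made from 5-methylcytosine by the TET dioxygenases. It is an intermediate of active DNA demethylation and also a lasting mark in neurons, where it is more abundant than in most other cells. In brain it is known to lie over the bodies of expressed genes and at enhancers, and to be scarce at CpG-island promoters and in constitutive heterochromatin. Antibody enrichment pulls down DNA fragments, so the read density of a region depends both on how much 5hmC each cytosine carries and on how many cytosines can carry it. No input library was analysed here, and the density values are not corrected for background.

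Reads were summed over windows of 10 kb, 100 kb and 1 Mb on chromosomes 1 to 19. Bins whose raw count averaged more than 100 in the 3 libraries were left out. There were 258 on the autosomes, with 80 on chromosome 9 and 50 on chromosome 6. A bin with at least 1 read in any of the 3 libraries is called covered, and 84.9% of the autosomal bins were. Density is the number of reads per covered bin of a window. Relative density is density divided by the median density over all windows of that size in the same library, so 1 is the median window. Windows with under 50% of their bins covered were not used, which kept 2398 of 2482 windows of 1 Mb, 23916 of 24731 windows of 100 kb and 237331 of 247243 windows of 10 kb. The median window of 1 Mb held 10032, 4795 and 5774 reads in WT replicates 1, 2 and 3, and the median window of 10 kb held 87, 46 and 55.

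WT replicate 1 stood apart from the other 2 libraries before any window was ranked. It held 41988546 reads against 27551216 and 29604828 in replicates 2 and 3. Over all chromosomes, the left-out bins took 29.8% of its reads, against 54.3% in replicate 2 and 49.6% in replicate 3. On the autosomes this left 28876734, 12191597 and 14433181 reads for the 3 libraries in order. In every library even counts per bin were more frequent than odd ones: of the autosomal bins with a read, 28.6%, 16.5% and 17.9% had an odd count in replicates 1, 2 and 3. In replicate 2, 923547 autosomal bins held 2 reads and 138948 held 1. Reads within a bin were thus not independent counts, and a read count overstates the precision of a value.

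Megabase windows ranked similarly by 5hmC reads in the 3 libraries, but the contrast between high and low windows was much wider in WT replicate 1. The correlation of log2 relative density across 1 Mb windows was 0.97 between replicates 2 and 3, 0.94 between replicates 1 and 2, and 0.92 between replicates 1 and 3. In windows of 100 kb these values were 0.87, 0.83 and 0.80, and in windows of 10 kb 0.60, 0.61 and 0.59. They run across windows of the same genome, which share covered length and base composition and are not replicates. The 90th percentile of relative density in 1 Mb windows was 4.04 times the 10th percentile in replicate 1, against 1.72 times in replicate 2 and 1.59 times in replicate 3. Wider contrast in replicate 1 was seen at each window size: the ratio was 4.75 against 2.10 and 1.92 at 100 kb, and 6.97 against 4.03 and 3.49 at 10 kb. The libraries thus shared the order of their domains more closely than the height of the domains. Replicate 1 had the lowest share of left-out reads and the most reads, as well as the widest contrast. Between replicates 2 and 3 this order did not hold. Replicate 2 had the larger share of left-out reads (54.3% against 49.6%) and fewer reads, but the wider contrast at each window size. The part of depth and left-out reads in the contrast was not tested.

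**Figure D1:**
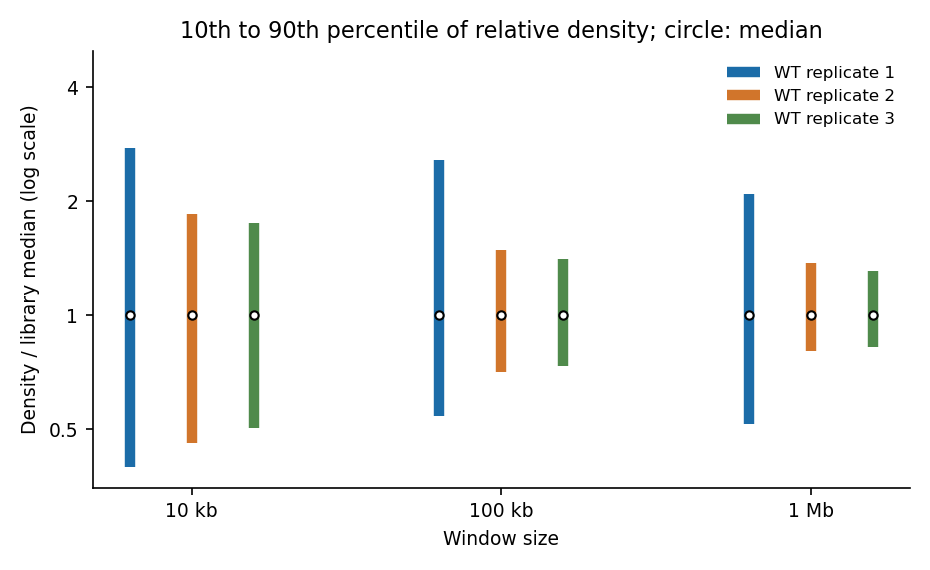
Relative density (reads per covered bin divided by the median of the library, log scale) for windows of 10 kb, 100 kb and 1 Mb in the 3 WT libraries. Bars run from the 10th to the 90th percentile and circles mark the median; the bar of WT replicate 1 is the longest at each size, with a ratio of 4.04 at 1 Mb against 1.72 and 1.59.

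Windows were called rich when they lay in the top 10% of density in each of the 3 libraries, and poor when they lay in the bottom 10% of each. This rank rule does not depend on how the libraries are scaled against each other. It found 180 rich windows of 1 Mb (7.51% of all) and 101 poor ones (4.21%). The shared rich windows were 75.0% of the top 10% of a library, and the shared poor windows 42.1% of the bottom 10%. At 100 kb 1424 windows were rich (5.95%) and 743 were poor (3.11%), and at 10 kb 6035 were rich (2.54%) and 2437 were poor (1.03%). Of the windows of 1 Mb in the bottom 10% of any library, 396 in all, 173 were so in 1 library alone, whereas for the top 10% these numbers were 305 and 70. High density was thus shared by the libraries more often than low density at each of the 3 window sizes. No window of 100 kb or 1 Mb was in the top 10% of one library and the bottom 10% of another, and 143 windows of 10 kb were.

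Windows were also ranked in 2 libraries and then read in the remaining one, although covered and left-out bins came from all 3. Those found in the same 10% of the remaining library are the rich or poor windows of the rank rule, set against a pair. Of the 188 windows of 1 Mb in the top 10% of both replicates 1 and 3, 95.7% were in the top 10% of replicate 2. The same share was 91.8% of 196 windows read in replicate 3 and 85.3% of 211 windows read in replicate 1. Every one of these windows lay above the median of the library not used to rank them. Windows chosen as poor in 2 libraries lay below the median of the remaining one in 100% of cases at 1 Mb, but in its bottom 10% in 82.8%, 73.2% and 61.2% of cases for replicates 2, 3 and 1. At 10 kb, where a window held few fragments, 62.3%, 57.4% and 51.8% of the rich windows and 33.5%, 32.3% and 36.1% of the poor windows were in the same 10% of replicates 2, 3 and 1. Most poor windows of 10 kb chosen in a pair of libraries were thus not in the lowest 10% of the remaining one, although 91.7% to 96.3% of them lay below the median of the remaining library.

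**Figure D2:**
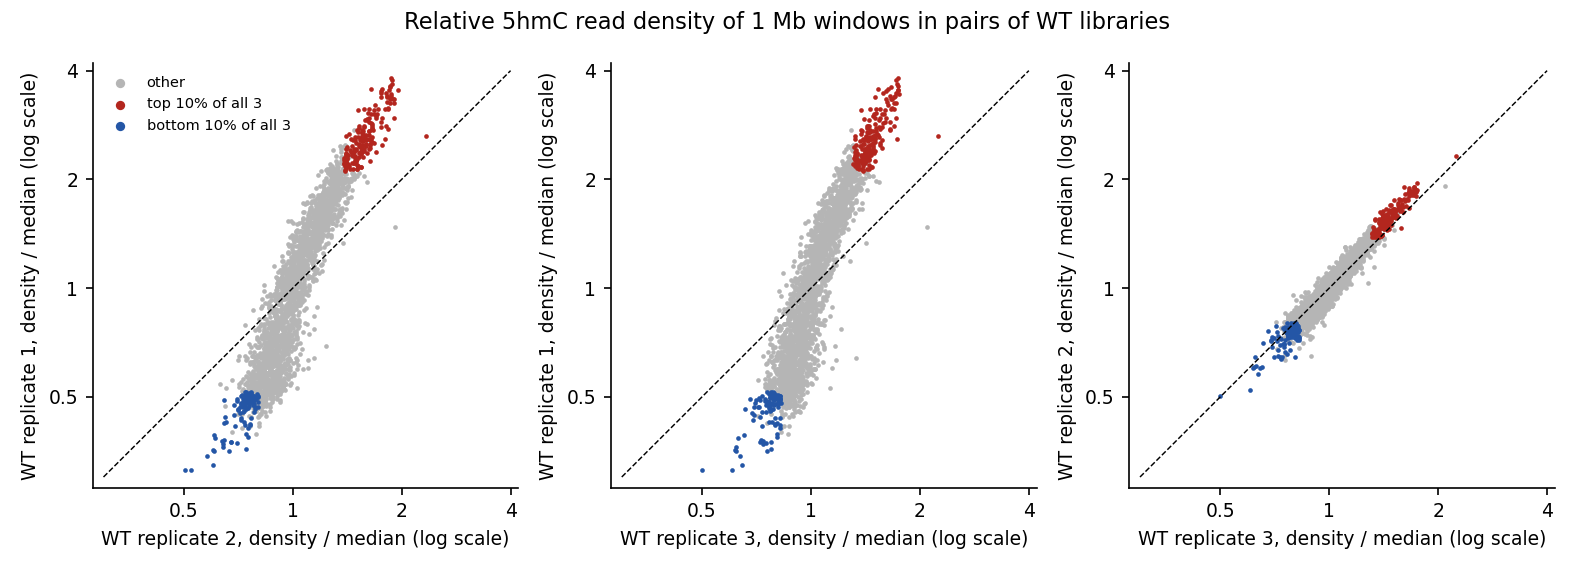
Relative density of the 2398 windows of 1 Mb in each pair of WT libraries, both axes on a log scale, with the 180 windows in the top 10% of all 3 libraries in red and the 101 in the bottom 10% of all 3 in blue. Points follow the dashed line of equal values for replicates 2 and 3, and rise more steeply than that line for replicate 1 against either.

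The richest megabase outside chromosome 11 was at chromosome 8, 124000001 to 125000000. It held 42609, 10059 and 11230 reads, a relative density of 3.82, 1.87 and 1.74 in WT replicates 1, 2 and 3, with 98.9% of its bins covered. Each library had it far above its median, and replicate 1 had it highest. Elsewhere on the same chromosome, 122000001 to 123000000 had relative densities of 3.68, 1.88 and 1.73.

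Adjoining megabases stood together on chromosome 4. There, 141000001 to 142000000 had relative densities of 3.53, 1.96 and 1.74, and 140000001 to 141000000 had 3.63, 1.85 and 1.74. On chromosome 10, 80000001 to 81000000 had 3.77, 1.88 and 1.72. The order of the libraries was the same in each of these windows. Chromosome 5, 125000001 to 126000000, had 3.54, 1.85 and 1.74, and chromosome 2, 167000001 to 168000000, had 3.45, 1.87 and 1.75. The first usable megabase of chromosome 11, 3000001 to 4000000, ranked above all of these by its mean log2 value but differed in kind. Its relative density was 2.64, 2.33 and 2.24, nearly equal in the 3 libraries, and 27 of its bins had been left out for their very high counts.

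The highest rich window of 100 kb by mean log2 value was inside that megabase. It held 9309, 5744 and 6673 of its 28172, 11964 and 13847 reads. At chromosome 11, 3000001 to 3100000, it had relative densities of 11, 12.5 and 12.0, and the 5 highest rich windows of 10 kb by mean log2 value were there, between 3030001 and 3100000. One of them, 3070001 to 3080000, had relative densities of 12.4, 22.2 and 20.0 in bins that had passed the bound. These windows hold between 2 and 5 left-out bins each. WT replicate 1 was the highest library in 1 of the 5, at 3030001 to 3040000, with 21.2 against 13.0 and 15.0. Replicate 1 was also not the highest at chromosome 8, 19900001 to 20000000, a window of 100 kb with 3 left-out bins and relative densities of 5.37, 5.84 and 6.31. The 100 kb beside it, 19800001 to 19900000, had 3.86, 3.98 and 3.63 with only 50.5% of its bins covered. Of the 180 rich windows of 1 Mb, 7 held a left-out bin.

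The spread between libraries was set against the distance from the median in a quasi-likelihood fit of edgeR, with an intercept alone and the median window as reference. At Benjamini-Hochberg adjusted p under 0.05 it placed 581 windows of 1 Mb above the median (24.2% of 2398) and 0 below (0%), with 125 below it at unadjusted p under 0.05; DESeq2 placed 515 above and 0 below. Of the 180 rich windows 178 were among the 581, all but the 2 named on chromosome 8, and of the 101 poor windows 0 were called. The window at chromosome 10 had a log2 difference from the median of 1.30 (SE 0.52, adjusted p = 0.0499), and that at chromosome 8, 124000001, 1.31 (SE 0.53, adjusted p = 0.0513). The count rested on the libraries: without WT replicate 1 edgeR placed 997 windows above and 967 below, and without replicate 2 or replicate 3 it placed 1 above and 0 below. Leaving out bins above a mean of 50 gave 7 windows above, and using only windows with no left-out bin gave 5, while the adjusted p of the named rich windows lay between 0.0499 and 0.0514.

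At 100 kb the fit placed 3376 windows above the median (14.1%) and 3635 below (15.2%), and at 10 kb 41164 above (17.3%) and 16276 below (6.86%). The rich windows of both sizes were all among those above, and the poor windows all among those below. The rank rule and the fit use the same reads, so such overlap, at any window size, is no separate support for either. Leaving out replicate 2 or replicate 3 ended nearly all of these calls, with at most 2 windows left at either size. Scaling by TMM factors moved the split at 100 kb to 7276 above and 807 below. DESeq2 placed 10895 above and 10736 below at 100 kb, and 358 above and 0 below at 10 kb. The rank rule therefore carries the description of domains here, and the fit adds the size of single differences. Reading in the remaining library counts the same windows again and is not separate support.

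Few bins were covered in most poor megabases, with under 80% covered in 99 of the 101. Coverage under 80% was not particular to them. It was found in 446 of the 2117 windows neither rich nor poor and in 4 of the 180 rich ones. The poorest was at chromosome 2, 175000001 to 176000000, with 2127, 1641 and 1961 reads and a relative density of 0.314, 0.504 and 0.501 in WT replicates 1, 2 and 3. Only 60.1% of its bins were covered. The next megabase, 176000001 to 177000000, had 0.384, 0.608 and 0.627 with 62.3% covered.

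Chromosome 12 held 4 of the 8 poorest windows, all between 19000001 and 25000000. Their relative density ran from 0.314 to 0.354 in replicate 1, from 0.523 to 0.606 in replicate 2 and from 0.606 to 0.645 in replicate 3. Between 62.0% and 76.2% of their bins were covered. The other 2 windows were at chromosome 7, 8000001 to 9000000, with 0.356, 0.601 and 0.615, and at chromosome 17, 19000001 to 20000000, with 0.362, 0.643 and 0.622. In each of the 8 windows all 3 libraries were below their median, and none differed from it in the edgeR fit (adjusted p between 0.144 and 0.514). The 5 poorest windows of 100 kb by mean log2 value lay inside these megabases on chromosomes 2 and 12. The edgeR fit at 100 kb placed them below the median (adjusted p between 0.0327 and 0.0347), with the limits given above for calls of that size.

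Coverage moved with density throughout. The median share of covered bins was 98.0% in the 180 rich windows of 1 Mb, 88.6% in the 2117 windows that were neither rich nor poor, and 73.9% in the 101 poor ones. Of the rich windows 166 had at least 95% of their bins covered, and of the poor windows 0 did. A bin without reads may hold sequence to which no read was assigned or sequence with little 5hmC, and which of these applies was not tested. Among the 521 windows of 1 Mb with at least 95% of bins covered, ranked on their own, 36 were in the top 10% and 20 in the bottom 10% of all 3 libraries. The contrast between percentiles in those windows was 1.77 in replicate 1, 1.39 in replicate 2 and 1.33 in replicate 3. Contrast was thus narrower among well covered megabases than among all of them, in each library. Covered bins are defined by reads of these same libraries, so a limit on coverage also selects on read number. The narrower contrast and the link of coverage with density are therefore partly given by construction.

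The densest and the thinnest autosome were the same in the 3 libraries. Chromosome 11 was the densest of the 19 in each library, at 1.26, 1.11 and 1.09 times all autosomes in WT replicates 1, 2 and 3 (1.15 ± 0.0905, SD, n = 3). Chromosome 3 was the thinnest in each, at 0.796, 0.916 and 0.933 (0.882 ± 0.0749). Chromosomes 17 and 5 followed chromosome 11, at 1.1 ± 0.0581 and 1.09 ± 0.0459, and differed from each other by less than their spread. Chromosomes 4, 8, 19, 9 and 15 lay between 1.07 and 1.04, and chromosomes 7 and 2 were at 1.01. Low densities were found on chromosomes 14, 1, 13 and 16, from 0.911 ± 0.0498 to 0.937 ± 0.0401. Of the 18 pairs of neighbours in this order, 9 kept their order in all 3 libraries, among them chromosome 11 over 17 and chromosome 14 over 3. The range was widest in replicate 1, where the densest autosome had 1.58 times the density of the thinnest, against 1.21 and 1.17 times in replicates 2 and 3. With only windows of 10 kb that were at least 95% covered, chromosome 4 was densest at 1.09, ahead of chromosome 17 at 1.09 and chromosome 11 at 1.08, and chromosome 3 was again thinnest at 0.899.

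Autosomes with more genes for their length had higher 5hmC read density. Chromosome 11, with 1609 protein-coding genes in RefSeq or 13.2 per Mb, stood at the top, and chromosome 3, with 6.16 per Mb, at the bottom. Across the 19 chromosomes the mean relative density correlated with the number of genes per Mb at Pearson r = 0.71 and Spearman rho = 0.75. Within the libraries r was 0.73, 0.66 and 0.69, and without chromosomes 7 and 11, which lie farthest from the median of genes per Mb, it was 0.74. The points come from the same libraries, base composition was not taken into account, and the value is a description of 19 chromosomes. Chromosome 7 departed most plainly from the relation. It had the highest gene number, 13.3 per Mb, at a density of 1.01 ± 0.0130. The relation was not computed for well covered windows alone, in which chromosome 4 and not chromosome 11 was densest.

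**Figure D3:**
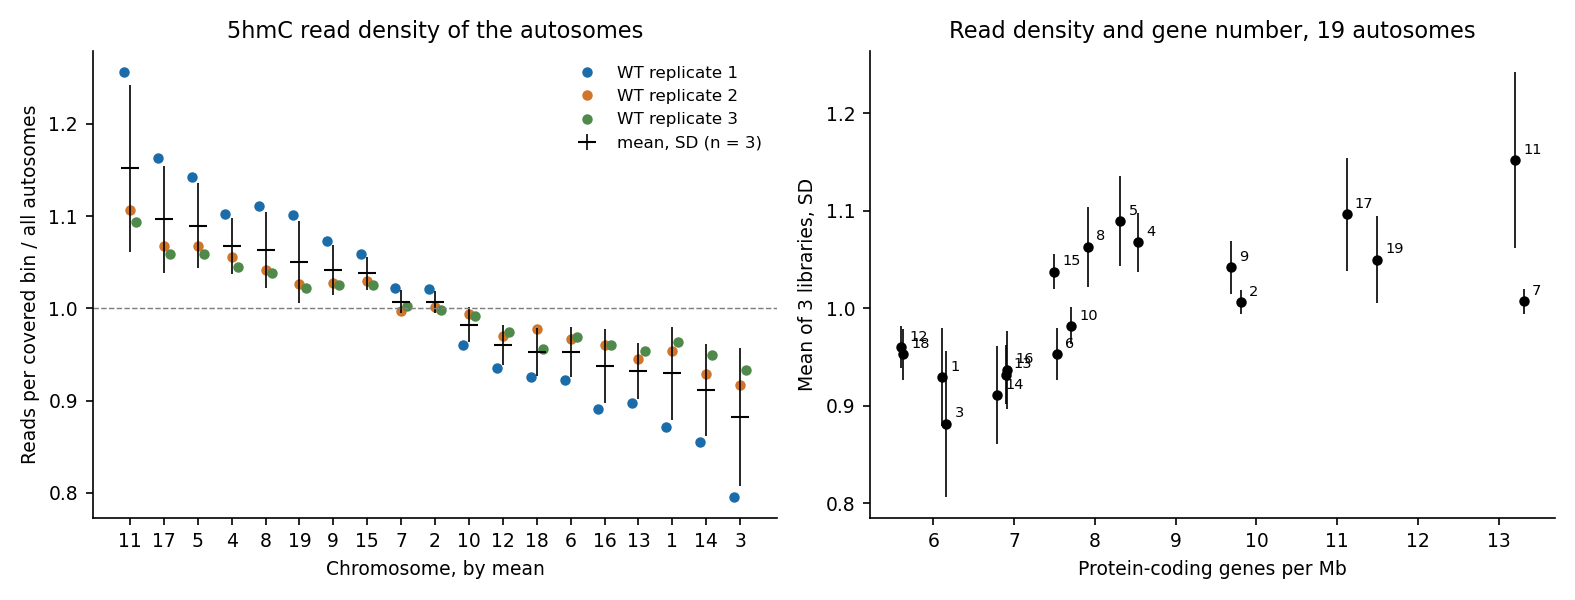
Left, reads per covered bin of each autosome relative to all autosomes, with the 3 WT libraries as coloured points and the mean with SD (n = 3) in black; chromosome 11 is highest at 1.15 and chromosome 3 lowest at 0.882. Right, the same means with SD against protein-coding genes per Mb, with chromosome 7 at 13.3 genes per Mb and a density of 1.01.

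Rich megabases were unevenly shared among the chromosomes. Of all windows 7.51% were rich. Chromosome 4 held 27 of the 180, which was 17.6% of its windows, chromosome 11 held 20 (16.8%) and chromosome 17 held 14 (15.2%). Chromosome 5 held 22 (14.9%) and chromosome 15 held 13 (13.0%). Chromosome 2 held 15, but at 8.38% of its windows it was near the share of all windows. Chromosome 3 held 1 of 156 windows, and chromosomes 6, 13 and 14 held 2 each. Poor megabases were most frequent on chromosome 17, with 10 of 92 windows, and on chromosome 14, with 10 of 122. Chromosome 17 was thus high in both counts, with 15.2% rich and 10.9% poor windows, against 7.51% and 4.21% of all windows.

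Density was higher toward the high-coordinate ends of the autosomes, which in the mouse are the ends away from the centromere. Each chromosome's usable windows of 1 Mb were split in order into 10 parts of like size. In part 1 the median relative density was 0.766, 0.967 and 0.968 in WT replicates 1, 2 and 3, and in part 10 it was 1.62, 1.20 and 1.14. Part 9 had 1.40, 1.13 and 1.09, and parts 1 to 6 did not exceed 1 in any library. The clearest rise in these medians thus lay in the last 2 parts. Parts 9 and 10 held 42 and 51 of the 180 rich windows, and part 1 held 5. In 15 of 19 chromosomes part 10 was denser than the rest in all 3 libraries, with chromosome 4 at 2.75, 1.54 and 1.39 times the rest and chromosome 11 at 2.31, 1.46 and 1.42 times. On chromosomes 13, 17 and 18 it was thinner in all 3, and lowest on chromosome 17, at 0.50, 0.802 and 0.839 times.

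Coverage changed along the chromosomes as well. The median share of covered bins was 86.4% in part 1 and 94.7% in part 10, and windows with at least 95% of bins covered numbered 21 and 112. In those well covered windows alone part 1 had medians of 2.01, 1.34 and 1.29 and part 10 had 2.16, 1.36 and 1.30, a far smaller difference. The number of well covered megabases was higher where density was higher, and its part in the gradient was not tested. Coverage and density are counted from the same reads, so the limit of 95% also selects on read number.

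**Figure D4:**
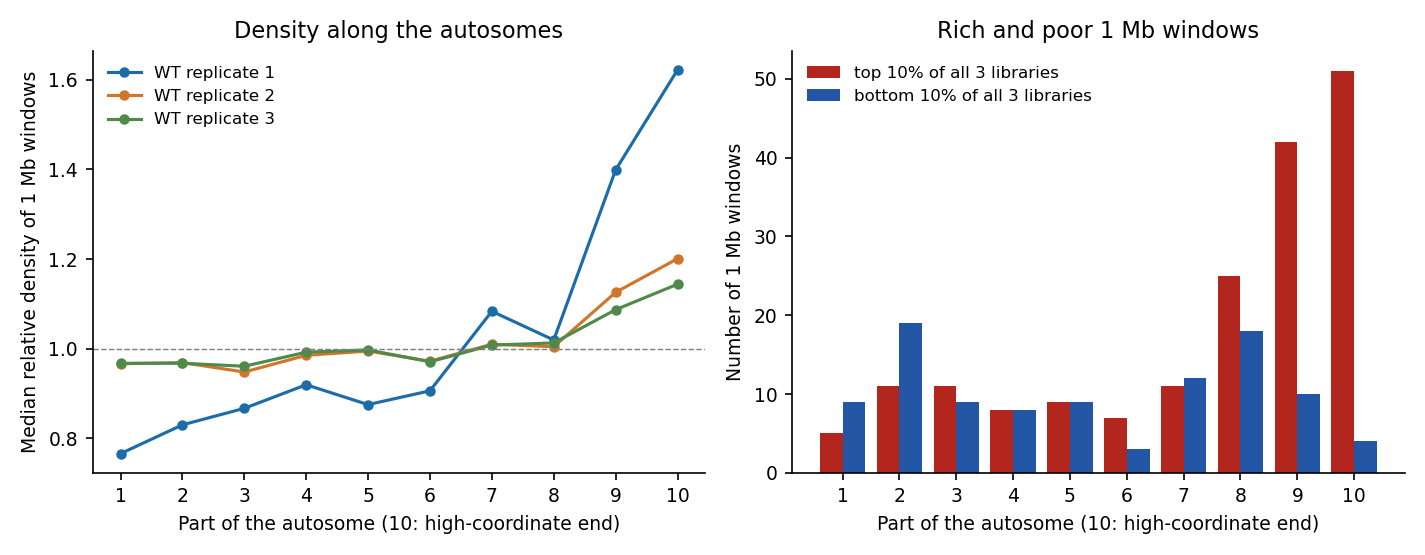
Left, median relative density of 1 Mb windows in 10 parts of the autosomes, in order of coordinate, for the 3 WT libraries, rising in part 10 to 1.62, 1.20 and 1.14. Right, number of windows in the top 10% (red) and bottom 10% (blue) of all 3 libraries, with 51 rich and 4 poor windows in part 10.

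Domains extended well beyond a single window of 100 kb. In windows of 100 kb the correlation of log2 relative density with that of the adjoining window was 0.86, 0.62 and 0.58 in WT replicates 1, 2 and 3. At a distance of 1 Mb it was 0.51, 0.32 and 0.30, at 5 Mb 0.15, 0.097 and 0.093, and at 10 Mb 0.081, 0.061 and 0.060. Similarity thus faded within about the first 5 Mb in each library. Of the variance among windows of 10 kb, 52.2% lay between megabases in replicate 1, against 19.6% and 18% in replicates 2 and 3, which had fewer reads per window. With the 3 libraries averaged, 56.6% lay between windows of 100 kb and 40.5% between megabases. In the 68076 windows of 10 kb with every bin covered, these averaged shares were 60.5% and 30.6%. The share between megabases in those windows was 40.6%, 16.4% and 15.4% in replicates 1, 2 and 3. Part of each share arises from grouping alone, more so at 100 kb, where a group holds fewer windows.

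Small windows followed the megabase they lay in. Of the 17851 windows of 10 kb inside rich megabases, 17.1% were rich and 0 were poor by the rank rule at 10 kb. Of the 9547 inside poor megabases, 5.57% were poor and 0 were rich. Elsewhere 1.42% were rich and 0.909% were poor. These windows share their reads with the megabases, so the direction is given by construction and only its completeness is a description.

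Rich windows of 100 kb adjoined others of their kind more often than poor ones did, and some formed long runs. The 1424 rich windows formed 757 runs, of which 44 had at least 5 windows, and 67.2% of the windows had a rich neighbour. The 743 poor windows formed 630 runs, with 5 runs of at least 5 windows, and 26.0% had a poor neighbour. Single windows made up 467 of the rich and 550 of the poor runs. A window not used for its coverage ends a run. Poor windows were fewer and less covered, at a median of 72.5% of bins against 99% in rich ones. The part of this in the difference between runs was not tested. The longest rich run spanned 2000 kb at chromosome 11, 115500001 to 117500000, with relative densities of 3.88, 1.89 and 1.72 in WT replicates 1, 2 and 3. It lay near the far end of the densest autosome and had 98.9% of its bins covered. The next longest were 1500 kb at chromosome 8, 123700001 to 125200000 (4.36, 1.90 and 1.73), 1300 kb at chromosome 4, 140000001 to 141300000 (4.19, 1.98 and 1.82), 1200 kb at chromosome 2, 166800001 to 168000000 (3.86, 1.86 and 1.76), and 1100 kb at chromosome 10, 80000001 to 81100000 (4.22, 1.88 and 1.71). Of the megabases named as rich, those at chromosome 8, 124000001, chromosome 4, 140000001, chromosome 2, 167000001 and chromosome 10, 80000001 lay inside these 4 runs. The longest poor run spanned 700 kb at chromosome 6, 129600001 to 130300000, with 0.403, 0.567 and 0.606 and 63.5% of bins covered. The other 4 were 500 kb each on chromosome 12, between 18800001 and 24600000, at 0.320 to 0.373 in replicate 1 and 0.487 to 0.619 in the other 2 libraries.

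Some domain borders were sharp at the scale of a megabase. Between 2373 pairs of adjoining windows of 1 Mb, the step had the same direction in all 3 libraries in 1796 (75.7%), and in 56 it reached at least 0.5 on the log2 scale in each library. Ranked by the smallest of the steps in the 3 libraries, the largest was on chromosome 2, where 174000001 to 175000000 had relative densities of 1.43, 1.1 and 1.09 and the next megabase the 0.314, 0.504 and 0.501 given above. On chromosome 12, density went the other way, from 0.354, 0.606 and 0.621 at 24000001 to 25000000 to 1.80, 1.25 and 1.26 in the next megabase. Coverage changed at both borders, from 91.4% to 60.1% of bins at the first and from 71.6% to 94.6% at the second. The rich megabase on chromosome 10 was bounded on the high side, where 81000001 to 82000000 had 0.860, 0.929 and 0.896. On its low side the step came 1 megabase earlier, from 0.745, 0.977 and 0.962 at 78000001 to 79000000 to 3.60, 1.85 and 1.66 in the megabase after it. On chromosome 19, 52000001 to 53000000 had 0.617, 0.820 and 0.868 and the next megabase 2.46, 1.54 and 1.48.

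At 10 kb, rich windows mostly stood alone, and a few formed longer blocks. The 6035 rich windows made 4372 runs, of which 3371 were single windows, 76 had at least 5 windows and 5 had at least 10, while the longest of the poor runs had 3 windows. The longest rich block was 140 kb at chromosome 4, 134090001 to 134230000, with relative densities of 5.92, 2.73 and 2.27 in WT replicates 1, 2 and 3. The 50 kb on its low-coordinate side had 3.47, 1.67 and 1.96, and the 50 kb on its other side 3.13, 1.65 and 1.71. The flanks were above the median window in all 3 libraries, and below the block.

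The second block fell most to one of its flanks of 50 kb among the 6 longest. It spanned 130 kb at chromosome 6, 114460001 to 114590000, with 99.6% of its bins covered, and had relative densities of 11.9, 3.16 and 2.84. In the 50 kb beyond its high-coordinate end they were 1.35, 0.815 and 0.986. The last window of 10 kb inside it held 929, 141 and 137 reads, and the first one outside, 114590001 to 114600000, held 83, 50 and 29. All 3 libraries therefore changed level at the same window border. On its low-coordinate side the 50 kb as a whole had 5.94, 1.94 and 1.91, over windows of unlike level. The window centred 15 kb before the block had 9.79, 3.97 and 2.64, and that centred 25 kb before it had 2.93, 0.795 and 1.26. A marked drop in all 3 libraries thus lay about 20 kb before the edge that the rank rule gives. This block also gave the largest disagreement between libraries at 100 kb, at 114500001 to 114600000, where replicate 1 had 10.7 against 2.89 and 2.52.

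Another block, of 120 kb at chromosome 8, 126030001 to 126150000, stood between lower flanks and held 1 left-out bin. It had 7.84, 4.42 and 3.21, against 3.16, 1.82 and 1.38 before it and 3.12, 1.81 and 1.62 after it. Chromosome 17 held 2 blocks, of 120 kb at 28320001 to 28440000 (5.53, 2.72 and 2.33) and of 110 kb at 27710001 to 27820000 (4.62, 2.97 and 2.45). The flanks of the first had 5.56, 2.09 and 1.75 before it and 3.68, 1.81 and 1.68 after it. Those of the second had 4.25, 2.41 and 2.00 before it and 4.70, 2.48 and 1.96 after it. In replicates 2 and 3 all 4 flanks were lower than their block, and in replicate 1 the flank before the first and the flank after the second were not. The sixth, of 90 kb at chromosome 4, 141000001 to 141090000, had 6.64, 3.59 and 2.98 inside the run of 1300 kb. Another rich window of 100 kb stood outside these blocks, at chromosome 1, 90100001 to 90200000, with 4.87, 3.43 and 3.38.

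**Figure D5:**
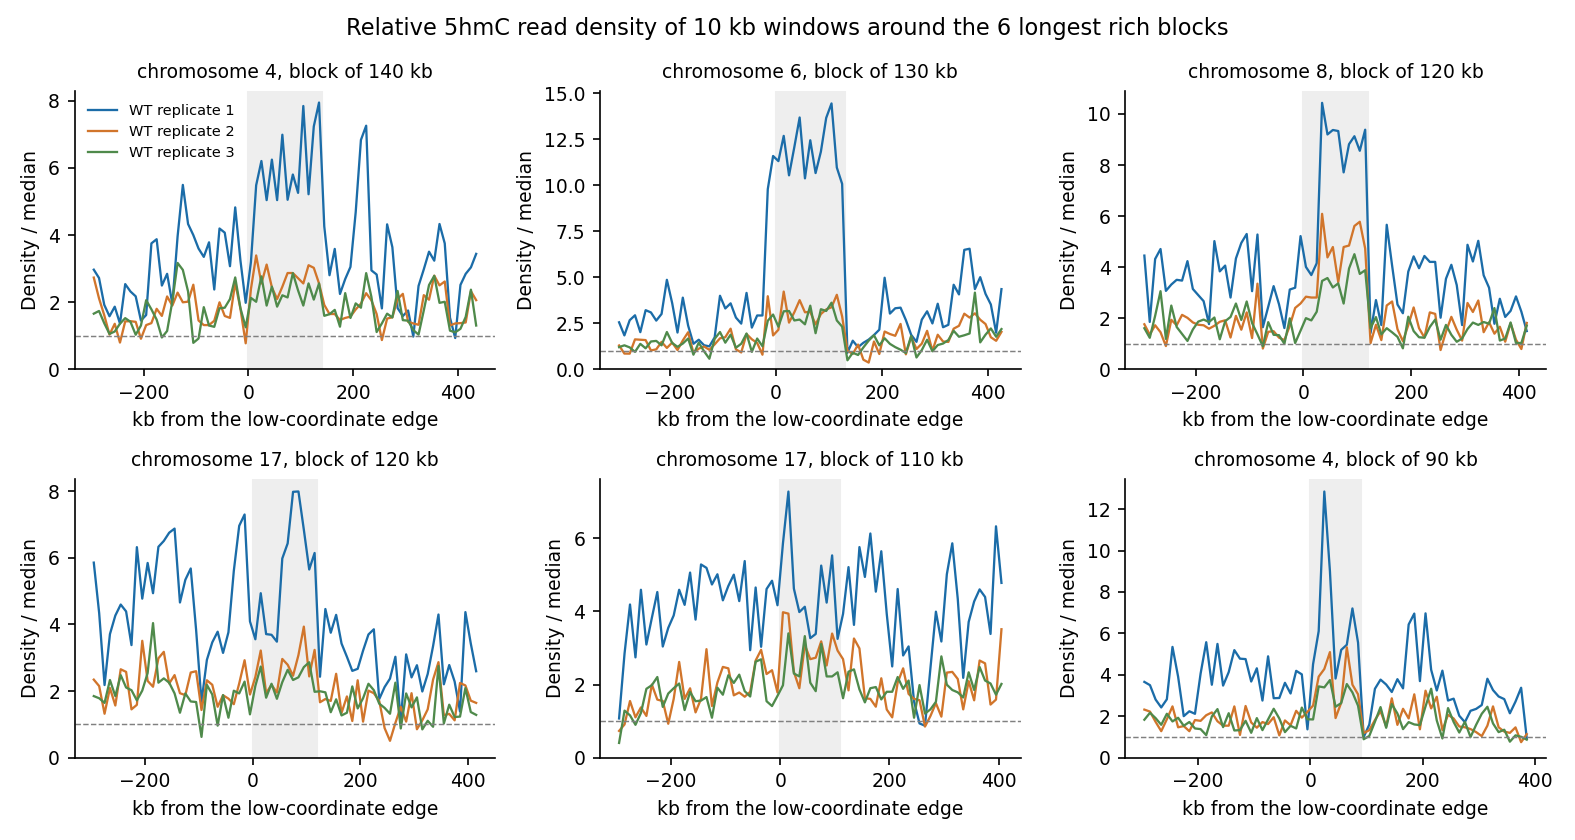
Relative density of 10 kb windows in the 3 WT libraries around the 6 longest runs of windows in the top 10% of all 3 libraries (shaded), by distance in kb from the low-coordinate edge of the run; the dashed line marks the median window. On chromosome 6 the levels of 11.9, 3.16 and 2.84 in the block end at its high-coordinate edge in all 3 libraries.

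Single poor windows of 10 kb rested on very few reads. The poorest, at chromosome 10, 49810001 to 49820000, held 19, 4 and 0 reads in 55.0% of its bins. At chromosome 6, 68830001 to 68840000, there were 22, 0 and 6 reads, and at chromosome 2, 63090001 to 63100000, 15, 0 and 14. A count of 0 would allow up to 3 reads if reads were independent, and more where they come in pairs, so no fold between libraries is given for these windows.

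The largest disagreements between libraries at 1 Mb were all in rich windows where WT replicate 1 led. At chromosome 6, 114000001 to 115000000, the relative densities were 3.56, 1.64 and 1.53. At chromosome 4, 153000001 to 154000000, they were 3.10, 1.51 and 1.38, and at chromosome 12, 113000001 to 114000000, 3.38, 1.75 and 1.51. No poor window was among the 5 with the largest range.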

How the data were processed

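The deposited values are raw counts of reads per bin of 500 bp, not normalized, per the file headers. Per the submitters' processing notes, Bowtie2, HOMER and DESeq2 were used on the build mm9. Their roles and versions, and any removal of duplicate or multiply matching reads, are not given in the sources used here. Such steps would change counts in repeats. Only the 3 WT columns were used, and no genotypes were compared. The members, windows and rules were chosen with earlier results of these data known. The runs of 10 kb windows and the limit of 95% covered bins were added after the data were seen.

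Bins were summed by start. Regions were named as the 8 (1 Mb) or 5 (other sizes) highest and lowest among rich or poor windows by mean log2(relative density + 0.1), the 5 longest runs, the 5 largest steps (by the smallest of the 3 libraries) and the 5 largest ranges. The single windows added beyond these were chosen after their values were seen. edgeR 4.0.16 in R 4.3.3 fitted an intercept alone, offset by covered bins times the median density of the library. The quasi-likelihood F test compared the deviance of intercept 0, two-sided, with Benjamini-Hochberg adjustment over all windows of a size. It was run on counts simulated as independent draws with its own fitted spread between libraries. These held neither paired reads nor a library of wider contrast, so they do not show how it performs on these data. The SE given is the absolute log2 difference divided by the square root of the F statistic, and is not a direct spread of the libraries. DESeq2 1.42.0 gave the alternative. Whether the 3 libraries came from different animals is not in the labels. The p-values reflect variation among these libraries only, part of which could be technical. Gene numbers per chromosome are protein-coding genes of RefSeq on GRCm38.p6, used by chromosome name only. No mm9 sequence or annotation was used here, so regions are given without genes, sequence or GC content. Python 3.11.15, pandas 2.3.3, numpy 2.4.6, scipy 1.17.1 and matplotlib 3.10.9 were used.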

Additional observations from a re-analysis of the deposited data

Results flagged for a closer look

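Reads outside the windows formed a signal that the comparisons did not use. The left-out bins of all chromosomes held 29.8%, 54.3% and 49.6% of the reads of WT replicates 1, 2 and 3. Reads per covered bin on chromosome X were 0.393, 0.648 and 0.666 times those of the autosomes in the 3 libraries. On chromosome Y, with 3359 covered bins, they were 0.568, 1.1 and 1.14 times. WT replicate 1 was the lowest of the 3 on both chromosomes.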

How the results depend on the processing

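No paired analysis was possible because 1 group alone was described. Libraries of 1 group, windows without input and thinly covered sequence limit all values. In 515 comparisons of 39 named windows, each window counted once per alternative that could test it, 0 changed direction, 106 lost the threshold and 32, in 10 windows, gained it. Each named window lay on the same side of the median in every library, so an unchanged direction was largely given by its choice. The limit of 95% covered bins and the windows with no left-out bin were chosen after seeing the data. Rank counts do not change with the scaling of a library and were not rerun for it, and named windows do not exist in shifted windows. Windows above and below the median are given here as above/below. At 10 kb, 41164/16276 had 23764 above with the mean as centre, 42041 below with all bins as length, 14895/7519 with 95% of bins covered and 358/0 with DESeq2. At 100 kb, 3376/3635 became 7276/807 with TMM factors, 6356/1681 with DESeq2 size factors, 7814/7171 with all bins as length, 1911/1650 with 95% covered and 10895/10736 with DESeq2; 87 were below with the mean as centre. At 1 Mb, 581/0 became 893 above with TMM factors, 983/887 with all bins, 171/140 with 95% covered, 7 above with bins over 50 left out and 5 above with windows that hold no left-out bin; 9 were below with 80% covered and 12 without a coverage minimum. Leaving out a library gave 0 to 40655 above and 0 to 2353 below at 10 kb, 0 to 7356 and 0 to 5964 at 100 kb, and 1 to 997 and 0 to 967 at 1 Mb. The share of calls above was 48.2% at 100 kb, and 90.02% with TMM factors, 79.1% with size factors and 98.2% with the mean as centre; at 10 kb it was 71.7%, and 56.9% with the mean as centre. The causes were not tested.

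Rich/poor counts with tails of 5% were 2348/375 at 10 kb, 646/246 at 100 kb and 89/40 at 1 Mb, fewer by construction. With 95% covered they were 2633 rich at 10 kb, 375/228 at 100 kb and 36/20 at 1 Mb, from fewer windows. With all bins as length 5435 were poor at 10 kb and 1166 at 100 kb, and with 80% covered 486 at 100 kb. With a library left out, fewer libraries had to concur: 9680 to 11654 rich and 6746 to 7546 poor at 10 kb, 1657 to 1774 and 1099 to 1288 at 100 kb, 188 to 211 and 122 to 165 at 1 Mb. The mean correlation of the libraries moved at 10 kb from 0.600 to 0.630 for raw density, 0.708 with all bins, 0.582 with 80% and 0.554 with 95% covered, at 100 kb to 0.905 and at 1 Mb to 0.973 with all bins, and at 1 Mb to 0.912 with 95% covered.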
